A study of Mus musculus with 42 samples.

Results

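The 43 genes described here encode the working parts of the lysosome: 11 glycosidases, 4 sulfatases, 9 proteins of lipid breakdown and sterol export, 4 proteases and phosphatases, 6 membrane proteins, 6 proton pump genes and the 3 transcription factors Tfeb, Tfe3 and Mitf. They were chosen by symbol among the 54446 genes of the count table, and all 43 had enough counts to be tested. Their RNA was measured in the liver of 42 female APOE*3-Leiden mice killed at week 32 of the study, with 1 library per mouse. All groups carried the human APOE*3-Leiden transgene, which gives mice a human-like lipoprotein profile, so the chow group was a diet control and not a wild-type control. The promoter of the transgene is not given in the sources used here.

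Chow (n = 10) was a maintenance diet given to a separate healthy reference group, whose age is not given in the sources used here. WTD (n = 16) was a Western-type diet with 15% cocoa butter, 40.5% sucrose and 1% cholesterol, started at 8 to 14 weeks of age and given for a run-in of 3 weeks before the 32 weeks, with 0.05% sodium cholate added from week 22. WTD+Atorvastatin (n = 16) was the same diet, cholate included, with the HMG-CoA reductase inhibitor atorvastatin admixed at 3.0 mg/kg/day and at 4.5 mg/kg/day from week 5. The mice on WTD were divided over those 2 groups after the run-in, whereas the chow mice carry another series of mouse numbers, so that diet and any difference in handling cannot be told apart.

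The libraries held 15661381 to 36224054 counts on genes. In 8 libraries (3 chow, 4 WTD, 1 WTD+Atorvastatin) over 20% of the genes expressed at 1 to 2 CPM had no count, and counts of called members are given below with and without them. Levels are CPM, the counts of a gene relative to the size of its library, with TMM scaling for composition. The samples were rich in hepatocyte RNA, Alb alone reaching medians of 91340 CPM (chow), 48530 CPM (WTD) and 83830 CPM (WTD+Atorvastatin). All 7 hepatocyte markers fell on WTD against chow, and all 14 tested macrophage markers rose, against 16.0% and 17.5% of all tested genes. Because liver was sequenced in bulk, more cells of a type and more RNA per cell cannot be told apart for any gene below.

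Lysosomes are acidic compartments in which proteins, sugars, lipids and nucleic acids brought in by endocytosis, phagocytosis and autophagy are broken down. The vacuolar proton pump keeps the lumen acid, soluble hydrolases do the digestion, and heavily glycosylated membrane proteins line the compartment and pass products back to the cytosol. Many of these genes share a promoter motif that is bound by TFEB, TFE3 and MITF, and both hepatocytes and macrophages take up lipoprotein cholesterol that has to be freed in lysosomes.

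Per length of the gene's exons, the most abundant members on chow were Psap and Lamp1, at medians of 218 and 216 CPM per kb. The length joins all annotated exons of a gene, so the order depends on the annotation. Before division by length Lamp2, with 9552 bases of exons, was highest on chow, at a median of 607 CPM. Psap and Lamp1 had 599 and 578 CPM. Psap, the precursor of 4 small saposins that hold lipids for hydrolases, stayed first on WTD at 636 CPM per kb. Lgmn, an asparagine-specific cysteine protease, moved from rank 8 of 43 on chow to rank 3 on WTD, and Cd63, a tetraspanin of late endosomes and lysosomes, from rank 34 to rank 8. Mitf had the lowest level in all 3 groups, at 0.91, 1.8 and 1.36 CPM per kb on chow, WTD and WTD+Atorvastatin. Over the 43 members, the coefficient of variation between mice had medians of 17.5% (chow), 13.8% (WTD) and 13% (WTD+Atorvastatin). Lamp1 varied least in both WTD groups, at 4.92% and 4.46%. The summed level of the 43 members ranged from 4000 to 4648 CPM on chow, from 5762 to 7206 on WTD and from 5287 to 6454 on WTD+Atorvastatin, and the chow range did not overlap the others. Without Psap the sums were 3438 to 4031, 4625 to 5123 and 4304 to 4803 CPM.

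To learn how the diet changed these genes, WTD was compared with chow with the quasi-likelihood F-test in edgeR, with Benjamini-Hochberg adjustment across the 15574 genes tested, and an adjusted p under 0.01 was called. On WTD 27 of the 43 members rose and 2 fell, Lamp2 and Gaa. Of all tested genes 17.5% rose, 16.0% fell and 33.5% were called in either direction, against 67.4% of the members. The median log2 fold change was 0.43 over the members and 0.03 over all tested genes. For 11 members every WTD mouse was above every chow mouse, against 3.40% of all tested genes, and for none was every WTD mouse below every chow mouse, against 2.43%. Without the 8 libraries short of weakly expressed genes, 29 members were called higher and 2 lower.

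**Figure D1:**
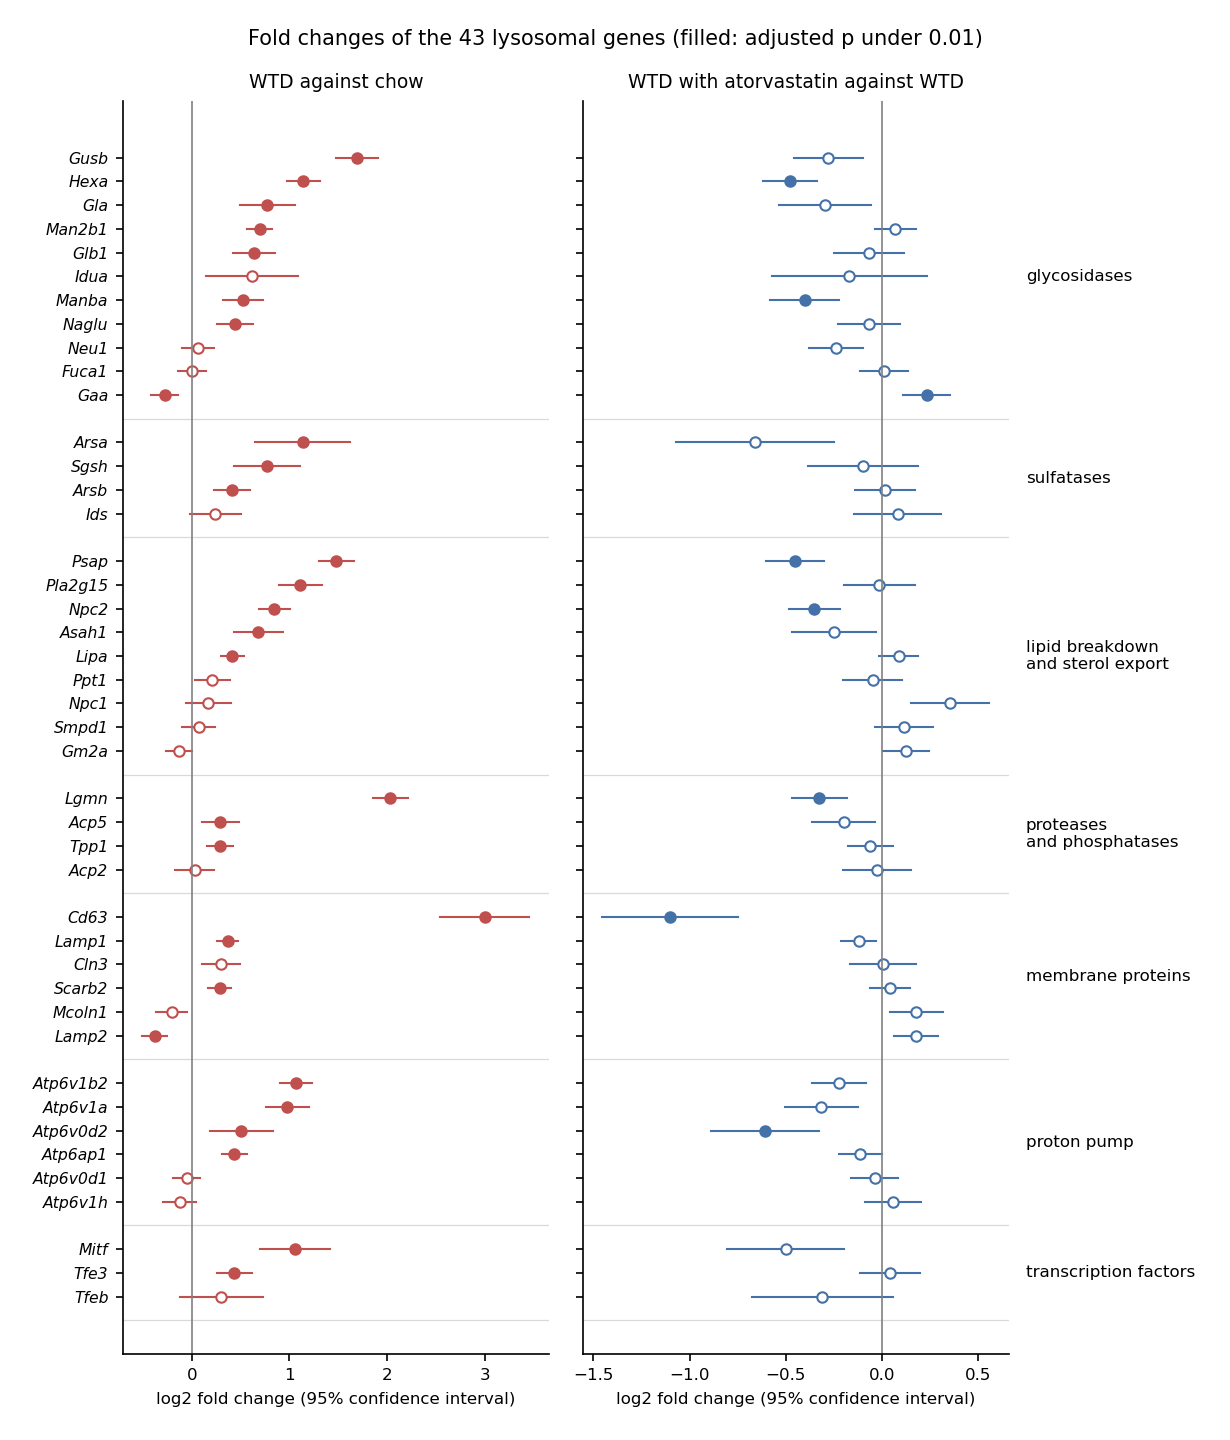
Log2 fold changes of the 43 members, grouped by role, for WTD against chow (left) and WTD+Atorvastatin against WTD (right), with the 2 panels on different scales. Points are the estimates, lines their 95% confidence intervals, and filled points passed an adjusted p under 0.01; most filled points on the left lie above 0, with Cd63 farthest at 3.00, and 7 of 8 on the right lie below 0.

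Among the transcription factors, Mitf and Tfe3 rose on WTD and Tfeb did not pass the test with all mice included. Mitf, best known from melanocytes, osteoclasts and macrophages, ranged from 3.78 to 10.4 CPM on chow (median 5.64), from 8.42 to 24 on WTD (11.2) and from 6.58 to 12.5 on WTD+Atorvastatin (8.41). The lowest WTD mice overlapped the highest chow mice, and the log2 fold change was 1.06 ± 0.18 (SE, adjusted p = 2.36e-06). Tfe3 had medians of 29.1 CPM on chow and 40 on WTD and rose by 0.43 ± 0.09 (adjusted p = 7.06e-05). Tfeb, the factor most closely tied to lysosome formation, had overlapping groups with medians of 11.2 CPM on chow and 14.3 on WTD, a log2 fold change of 0.30 ± 0.21 and an adjusted p of 0.249. It was also the most variable member on chow, with a coefficient of variation of 65.8%. Its highest chow value, 33.5 CPM, came from mouse AZ5, whose library had no count for 46.4% of the weakly expressed genes. Without AZ5 Tfeb was called higher (adjusted p = 0.0094), whereas none of 10 alternative settings called it, with log2 fold changes up to 0.46 and adjusted p values from 0.0227 to 0.289. These values are RNA levels and do not show how much of the factors was in the nucleus, where they act.

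Promoter windows of RefSeq (GRCm38.p6, from 250 bases before to 50 after a transcription start) were found for 38 of the 43 members and were searched for the E-box core CACGTG, which reads the same on both strands and is the center of the motif that these factors bind. The core was in a window of 12 of the 38 members (31.6%), of 17 of 69 other lysosome genes (24.6%) and of 8.09% of all 27025 genes with a window. With GT before it or AC after it (GTCACGTG or CACGTGAC, each of which contains the core), it was in 10 members (26.3%) and in 2.55% of all genes. The upstream part of the Lamp1 window is shown because it held the most cores, 4 within its last 61 bases, all in capitals (chr8:13158911-13159160, plus strand). A stretch of 26 bases around the core follows for members with different responses to the diet, written along the strand of the gene with the core in capitals: Lgmn (chr12:102439126-102439151, minus strand) and Arsa (chr15:89477425-89477450, minus strand), which rose most among members with a core, Mcoln1, whose window held 2 (chr8:3500438-3500463 and chr8:3500464-3500489, plus strand), and Gaa (chr11:119267813-119267838, plus strand), which fell.
Lamp1: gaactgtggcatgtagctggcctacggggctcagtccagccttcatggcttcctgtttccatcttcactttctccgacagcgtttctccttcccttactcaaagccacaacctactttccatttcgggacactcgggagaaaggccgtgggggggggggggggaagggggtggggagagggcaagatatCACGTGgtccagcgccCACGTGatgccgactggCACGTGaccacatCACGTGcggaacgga
Lgmn: gaatgtctgtCACGTGgtccatttta
Arsa: aactcagtgtCACGTGttgtctgctc
Mcoln1, first: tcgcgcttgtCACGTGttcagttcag
Mcoln1, second: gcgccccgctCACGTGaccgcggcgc
Gaa: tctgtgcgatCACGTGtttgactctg

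Of the 12 members with a core, 8 rose, 1 fell and 3 were not called on WTD, with a median log2 fold change of 0.54. Of the 26 without a core in their window, 16 rose, 1 fell and 9 were not called, with a median of 0.41. The shares over all tested genes were 17.5% higher and 16.0% lower. The 3 largest rises among all members, those of Cd63, Lgmn and Gusb, came from 1 gene with a core, Lgmn, and 2 without. The match is a description of letters in a window, and binding was not measured. A RefSeq start need not be the outermost annotated start of a gene. The stretch of Lgmn lies inside the GENCODE interval of the gene (chr12:102394084-102439813). The same holds for the Mcoln1 stretch at chr8:3500464-3500489 (gene at chr8:3500457-3515232).

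**Figure D2:**
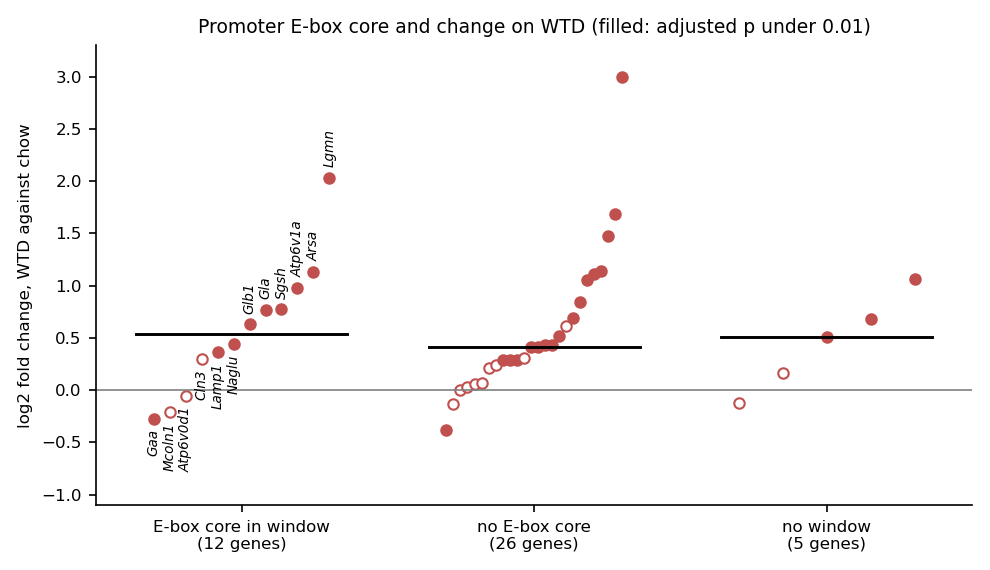
Log2 fold change on WTD against chow (vertical axis) of each member by whether a promoter window held the E-box core. Each point is a gene, filled where the adjusted p was under 0.01, and lines are medians of 0.54, 0.41 and 0.51; genes with and without the core covered overlapping ranges.

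The membrane proteins moved in both directions on WTD, with 3 of 6 higher and 1 lower, against 17.5% and 16.0% of all tested genes. Cd63 (chr10:128900989-128912822, plus strand) ranged from 12.3 to 31.7 CPM on chow (median 18.9) and from 34.9 to 230 on WTD (168). No WTD mouse overlapped the chow mice, although Gen20, the WTD mouse with the lowest level, was close to them. With a log2 fold change of 3.00 ± 0.23 (adjusted p = 2.47e-14) this was the largest change among the members.

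Lamp1 and Lamp2, the related and most abundant glycoproteins of the lysosomal membrane, went in opposite directions. Lamp1 (chr8:13159161-13175338, plus strand) ranged from 488 to 668 CPM on chow (578) and from 674 to 798 on WTD (748), without overlap, and rose by 0.37 ± 0.05 on the log2 scale (adjusted p = 6.51e-08). Lamp2 (chrX:38401357-38456454, minus strand), which also serves chaperone-mediated autophagy, ranged from 551 to 810 CPM on chow (607) and from 413 to 569 on WTD (473). Here 15 of 16 WTD mice were below the lowest chow mouse, and Lamp2 fell by 0.38 ± 0.06 on the log2 scale (adjusted p = 2.09e-06). Scarb2, which carries glucocerebrosidase to lysosomes, rose by 0.28 ± 0.06 (adjusted p = 8.49e-05). Cln3 (0.30 ± 0.10, adjusted p = 0.0101) and the calcium channel gene Mcoln1 (-0.21 ± 0.08, adjusted p = 0.0244) were not called. Cln3 was next to the threshold, which it passed in 6 of 10 alternative settings and in 11 of 42 fits that left out 1 mouse each, with adjusted p values from 0.00321 to 0.03.

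**Figure D3:**
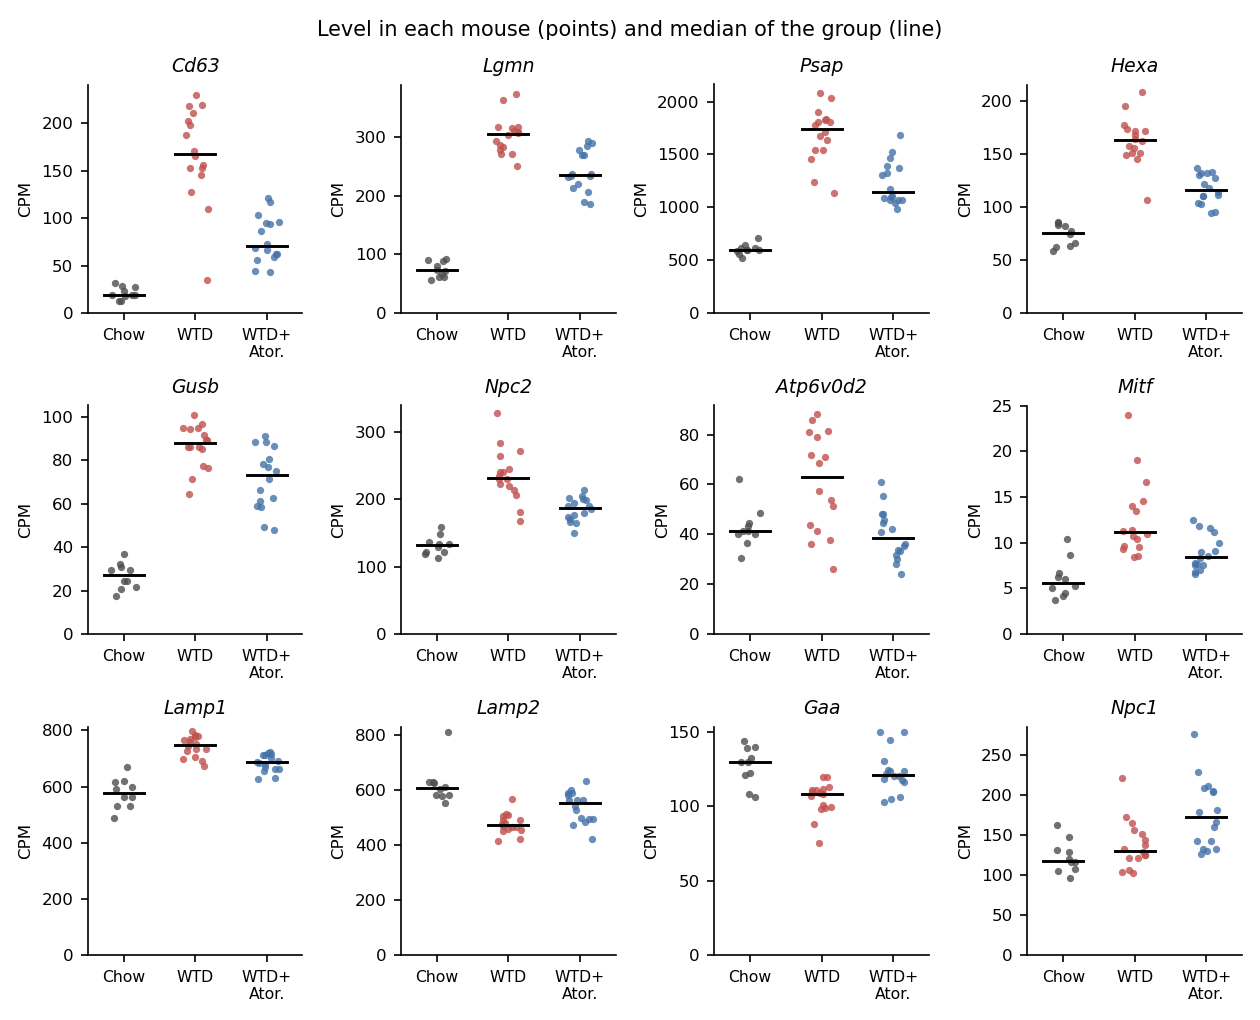
Levels of 12 members in CPM (vertical axes, starting at 0) in each of the 10 chow, 16 WTD and 16 WTD+Atorvastatin mice. Points are mice and lines are group medians; Cd63, Lgmn, Psap, Hexa, Gusb, Npc2 and Lamp1 show no overlap of WTD with chow, Lamp2 and Gaa lie lower on WTD, and Npc1 overlaps in all groups.

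Of the glycosidases, which trim sugars from glycoproteins, glycolipids and glycosaminoglycans, 7 of 11 rose on WTD and 1 fell. The shares over all tested genes were 17.5% and 16.0%. Gusb, the beta-glucuronidase, ranged from 17.6 to 37 CPM on chow (26.9) and from 64.4 to 101 on WTD (87.6), and its log2 fold change was 1.69 ± 0.11 (adjusted p = 1.29e-18). Hexa (chr9:59539540-59565109, plus strand), the alpha subunit of the hexosaminidase that degrades GM2 ganglioside, ranged from 58.9 to 85.8 CPM on chow (75.9) and from 107 to 208 on WTD (163), and rose by 1.14 ± 0.08 (adjusted p = 1.1e-16). Neither gene overlapped between chow and WTD, and the same held for the mannosidase gene Man2b1 (0.69 ± 0.06, adjusted p = 2.19e-13).

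The other risers of this role were Gla, Glb1, Manba and Naglu, with log2 fold changes from 0.44 to 0.77 and overlapping groups. Gaa (chr11:119267887-119285454, plus strand), the acid alpha-glucosidase that degrades glycogen, was the exception. It ranged from 106 to 144 CPM on chow (130) and from 75.4 to 120 on WTD (109), and it fell by 0.28 ± 0.07 on the log2 scale (adjusted p = 0.000848). Fuca1 (0.00 ± 0.07, 95% confidence interval -0.14 to 0.15) and Neu1 (0.06 ± 0.08, -0.10 to 0.22) were not called. Idua (0.61 ± 0.24, adjusted p = 0.0296) was not called either, and its lowest value, 0.785 CPM, came from the WTD mouse Gen13, which had no counts for 46.2% of the weakly expressed genes. Without Gen13 it was called (adjusted p = 0.00114). Idua was also called with limma-voom and without the 8 libraries short of weakly expressed genes, with adjusted p values down to 0.000191.

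The sulfatases remove sulfate groups from glycolipids and glycosaminoglycans, and 3 of 4 rose on WTD, against 17.5% of all tested genes. Arsa, which degrades sulfatide, ranged from 4.54 to 51.2 CPM on chow (27.3) and from 41 to 89.6 on WTD (60.4), with 12 of 16 WTD mice above all chow mice, and rose by 1.14 ± 0.24 (adjusted p = 0.000143). Sgsh (0.77 ± 0.17) and Arsb (0.41 ± 0.09) rose with adjusted p values of 0.000144 and 0.000187. Ids, with 0.24 ± 0.13 and an adjusted p of 0.134, was not called. It was called with limma-voom and without the 8 libraries short of weakly expressed genes, with log2 fold changes up to 0.43 and adjusted p values down to 0.00376.

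In the role of lipid breakdown and sterol export 5 of 9 members rose on WTD and 4 were not called, while 17.5% of all tested genes rose. Lipa, the acid lipase that frees cholesterol and fatty acids from lipoprotein esters, ranged from 203 to 258 CPM on chow (227) and from 250 to 348 on WTD (306). All but 1 of the 16 WTD mice were above the chow range, and Lipa rose by 0.41 ± 0.06 (adjusted p = 3.44e-08). The products of Npc2 and Npc1 hand the freed cholesterol on, from the lumen to the limiting membrane and out. Npc2 (chr12:84754562-84773152, minus strand) ranged from 112 to 158 CPM on chow (132) and from 167 to 328 on WTD (232), without overlap, and rose by 0.84 ± 0.08 (adjusted p = 5.13e-13). Npc1, with 96 to 162 CPM on chow (118) and 102 to 222 on WTD (130), had overlapping groups and a log2 fold change of 0.17 ± 0.12 (adjusted p = 0.248).

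Psap (chr10:60277627-60302597, plus strand) ranged from 525 to 709 CPM on chow (599) and from 1137 to 2083 on WTD (1744). Its groups did not overlap, and it rose by 1.48 ± 0.09 (adjusted p = 2.26e-19). The other activator protein, Gm2a, which presents GM2 ganglioside to the product of Hexa, had a log2 fold change of -0.13 ± 0.07 (95% confidence interval -0.27 to 0.00, adjusted p = 0.112). Pla2g15, the lysosomal phospholipase, rose by 1.11 ± 0.11 without overlap (adjusted p = 2.49e-12), and Asah1, the acid ceramidase, by 0.68 ± 0.13 (adjusted p = 1.27e-05). Smpd1, the acid sphingomyelinase (0.07 ± 0.09), and Ppt1, which removes palmitate from proteins (0.21 ± 0.09), had adjusted p values of 0.545 and 0.046. Ppt1 was called higher without chow mouse AZ5 (adjusted p = 0.00119), with limma-voom and without the 8 libraries short of weakly expressed genes, with log2 fold changes up to 0.36 in these 2 settings.

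Lgmn (chr12:102394084-102439813, minus strand), whose stretch printed above lies inside this interval, ranged from 56 to 92 CPM on chow (73.1) and from 250 to 374 on WTD (306). The lowest WTD mouse was far above the highest chow mouse, and the log2 fold change was 2.03 ± 0.09 (adjusted p = 5.69e-25). Tpp1, a peptidase that removes tripeptides, rose by 0.29 ± 0.07 (adjusted p = 0.000301). Of the acid phosphatases, Acp2 was not called (0.03 ± 0.10, adjusted p = 0.847). Acp5, the tartrate-resistant form known from osteoclasts and macrophages, was called with 0.29 ± 0.09 and an adjusted p of 0.00926, but this call was lost in 4 of 10 alternative settings, where adjusted p values reached 0.0783 and the log2 fold change went down to 0.18. It was also lost in 25 of 42 fits that left out 1 mouse each, where adjusted p values reached 0.0222.

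The proton pump consists of a cytosolic V1 part that uses ATP and a membrane V0 part that carries the protons. On WTD 4 of its 6 genes rose, against 17.5% of all tested genes. Atp6v1b2, a subunit of the ATP-binding ring, ranged from 46.6 to 75.8 CPM on chow (57.6) and from 103 to 149 on WTD (119), and Atp6v1a, the catalytic subunit, from 22.3 to 44.2 (37.5) and from 52.7 to 101 (69.1). Neither overlapped, and they rose by 1.06 ± 0.08 (adjusted p = 9.55e-16) and 0.98 ± 0.11 (adjusted p = 2e-10). Atp6ap1, an accessory subunit, rose by 0.43 ± 0.06 (adjusted p = 1.37e-07). Atp6v1h, the regulatory subunit (-0.13 ± 0.08, adjusted p = 0.22), and Atp6v0d1, the d subunit found in all tissues (-0.05 ± 0.07, adjusted p = 0.557), were not called. Atp6v0d2, the alternative d subunit known from osteoclasts and kidney, was called with 0.51 ± 0.16 and an adjusted p of 0.00871. That call was lost in 3 of 10 alternative settings, with adjusted p values up to 0.0501, and in 17 of 42 fits that left out 1 mouse each, with values up to 0.0212.

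To learn what atorvastatin did on top of the diet, WTD+Atorvastatin was compared with WTD in the same fit. With atorvastatin 7 members fell and 1 rose, while 35 were not called. Of all tested genes 2.26% fell, 4.84% rose and 7.10% were called in either direction, against 18.6% of the members. The members' median log2 fold change was -0.07, and that of all tested genes was 0.00. No member had groups without overlap, against 0.00642% of all tested genes with treatment above and 0.00% below. Without the 8 libraries short of weakly expressed genes 6 members were called, all lower. The number depended on the method more than in the diet comparison, with 14 lower and 0 higher by DESeq2 and 16 lower and 5 higher by limma-voom.

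Cd63 had the largest fall. It ranged from 43 to 122 CPM on WTD+Atorvastatin (70.9), against the WTD median of 168, and fell by 1.10 ± 0.17 on the log2 scale (adjusted p = 4.23e-05). No treated mouse was below the WTD mouse Gen20, at 34.9 CPM. Gen20 had the lowest value of its group for 10 of the 43 members and the lowest summed macrophage marker level, 1494 CPM. Psap ranged from 983 to 1686 CPM with treatment (1140) and fell by 0.45 ± 0.08 (adjusted p = 4.48e-05), with 8 of 16 treated mice below all WTD mice. Hexa, at 94.3 to 137 CPM (116), fell by 0.48 ± 0.07 (adjusted p = 1.4e-05).

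Lgmn ranged from 186 to 293 CPM with treatment (235), with 10 of 16 mice below the WTD range, and fell by 0.33 ± 0.07 (adjusted p = 0.00108). Npc2, at 150 to 214 CPM (187), fell by 0.35 ± 0.07 (adjusted p = 0.00022). Manba, the beta-mannosidase, had medians of 36.8 CPM on WTD and 25.9 with treatment and fell by 0.40 ± 0.09 (adjusted p = 0.00107). Atp6v0d2 ranged from 26.2 to 88.5 CPM on WTD (63.1) and from 24.3 to 61 with treatment (38.5), and fell by 0.61 ± 0.14 (adjusted p = 0.00186). For Manba and Atp6v0d2 the call was lost without the 8 libraries short of weakly expressed genes (adjusted p = 0.0305 and 0.0463).

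Gaa was the only member called higher, from a median of 109 to 121 CPM, with 10 of 16 treated mice above all WTD mice and a log2 fold change of 0.23 ± 0.06 (adjusted p = 0.00653). This call depended on the scaling: it was lost with DESeq2, with RLE and upper-quartile normalization, with the stricter count filter and without the 8 libraries, with adjusted p values up to 0.0246. It was also lost when any of 10 mice was left out (WTD Gen4, Gen6, Gen9, Gen10, Gen13 and Gen15, and WTD+Atorvastatin Gen27, Gen34, Gen35 and Gen37), with adjusted p values up to 0.017. Lamp2 had medians of 473 and 553 CPM and a log2 fold change of 0.18 ± 0.06 that was not called (adjusted p = 0.0287), except with limma-voom and without Gen20 or Gen28. Npc1 ranged from 126 to 277 CPM with treatment (173), with a log2 fold change of 0.35 ± 0.10 and an adjusted p of 0.0137. It passed the threshold when any of 6 mice (WTD Gen20 and Gen21, WTD+Atorvastatin Gen22, Gen23, Gen24 and Gen25) was left out, where the adjusted p went down to 0.00131, and in 1 of 10 alternative settings. Lipa had 0.09 ± 0.05 (95% confidence interval -0.01 to 0.19, adjusted p = 0.294).

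The sulfatases and transcription factors held no called member with atorvastatin, while 7.10% of all tested genes were called. Arsa had the largest uncalled value, with medians of 60.4 CPM on WTD and 33.3 with treatment, 10 of 16 treated mice below all WTD mice, and a log2 fold change of -0.66 ± 0.20 (adjusted p = 0.0236). It was called without chow mouse AZ2, without Gen24 or without Gen28, with adjusted p values down to 0.00586. Arsa was also called lower in 3 of 10 alternative settings (DESeq2, limma-voom and only the 2 groups compared). Over the 10 settings its adjusted p values ranged from 1.87e-06 to 0.0391. Mitf had -0.50 ± 0.15 (adjusted p = 0.0189, called in 4 of 10 alternative settings), Tfeb -0.31 ± 0.18 (0.305) and Tfe3 0.04 ± 0.08 (0.811). In the proton pump, Atp6v1a (-0.32 ± 0.09) and Atp6v1b2 (-0.22 ± 0.07) had adjusted p values of 0.0177 and 0.0227 and were not called. They were called lower in 6 and 4 of 10 alternative settings, where adjusted p values ranged from 0.000253 to 0.15 and from 0.000173 to 0.0475, and also without Gen28 (0.00627 and 0.00896). The glycosidase gene Neu1 (adjusted p = 0.0157) was called lower in 7 of 10 settings and without Gen29, and Gusb (adjusted p = 0.0267) in 4 of 10. Tpp1 (-0.06 ± 0.06), Acp5 (-0.20 ± 0.08), Lamp1 (-0.12 ± 0.05) and Ids (0.08 ± 0.11) had adjusted p values from 0.0697 to 0.748. Of these, only Lamp1 was called in any alternative setting. It was called lower in 4 of 10 (DESeq2, limma-voom, RLE and the stricter count filter), with adjusted p values from 0.00012 to 0.128 over the 10.

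To see what remained different from healthy liver under treatment, WTD+Atorvastatin was compared with chow. This comparison shares its groups with the other two, so its values are given side by side with them and not as separate evidence. Here 23 members were higher and 0 lower. Their median log2 fold change was 0.38, and that of all tested genes 0.04. Of all tested genes 14.2% were higher, 10.7% lower and 25.0% called in either direction, against 53.5% of the members. In 9 members every treated mouse was above every chow mouse, against 2.88% of all tested genes, and in none was every treated mouse below, against 1.50%. Without the 8 libraries 26 members were higher and 1 lower.

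Lgmn was still 1.71 ± 0.09 above chow on the log2 scale (2.03 on WTD), Cd63 1.90 ± 0.22 (3.00), Gusb 1.41 ± 0.11 (1.69), Pla2g15 1.10 ± 0.11 (1.11) and Psap 1.03 ± 0.09 (1.48), and none of the 5 overlapped with chow. Npc1, not called on WTD, was called here with 0.52 ± 0.12 (adjusted p = 0.000367), and Lipa had 0.50 ± 0.06 (adjusted p = 6.72e-10). The call of Npc1 was lost without the 8 libraries (adjusted p = 0.011). Conversely, Arsa (0.48 ± 0.24), Manba (0.12 ± 0.10), Acp5 (0.09 ± 0.09), Atp6v0d2 (-0.10 ± 0.16), Gaa (-0.04 ± 0.07), Mitf and Lamp2 were called on WTD against chow and not here. Mitf and Lamp2 were next to the threshold. Mitf, with 0.56 ± 0.18 and an adjusted p of 0.0108, was called higher in 4 of 10 alternative settings and when any of 7 mice (AZ1, AZ4, Gen11, Gen13, Gen29, Gen30 and Gen35) was left out. Lamp2, with -0.20 ± 0.06 and an adjusted p of 0.0106, was called lower in 8 of 10 alternative settings and when any of 8 mice (AZ2, Gen2, Gen20, Gen29, Gen31, Gen33, Gen35 and Gen37) was left out. The calls of Gla (0.47 ± 0.14), Tpp1 (0.23 ± 0.07) and Asah1 (0.43 ± 0.13) were lost in 2, 2 and 1 of 10 alternative settings, with adjusted p values up to 0.0171, 0.0202 and 0.0247. They were also lost in 8, 5 and 2 of the 42 fits that left out 1 mouse each, with adjusted p values up to 0.0167, 0.0169 and 0.0112. For Gla these mice were AZ2, AZ7, AZ8, AZ9, AZ10, Gen23, Gen25 and Gen36, for Tpp1 AZ1, AZ6, AZ8, AZ9 and AZ10, and for Asah1 AZ3 and AZ7.

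Since partners with related tasks moved apart, their CPM were set against each other within each mouse, which leaves out the scaling of the library. Lamp1 over Lamp2 was 0.739 to 1.15 on chow (0.913), 1.19 to 1.78 on WTD (1.58) and 1.11 to 1.59 on WTD+Atorvastatin (1.25). Every WTD mouse was above every chow mouse, and the treated mice overlapped with both groups. Psap over Gm2a was 3.61 to 5.7 on chow (4.61), 9.96 to 18.4 on WTD (14.4) and 6.92 to 13.5 with treatment (8.49), so that neither WTD group overlapped with chow. Npc2 over Npc1 had medians of 1.02 on chow, 1.8 on WTD and 1.04 with treatment, and Atp6v0d2 over Atp6v0d1 had 0.488, 0.74 and 0.504. In these last ratios all groups overlapped. The pairs were chosen with the members' changes known, and the ratios are descriptions without a test.

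**Figure D4:**
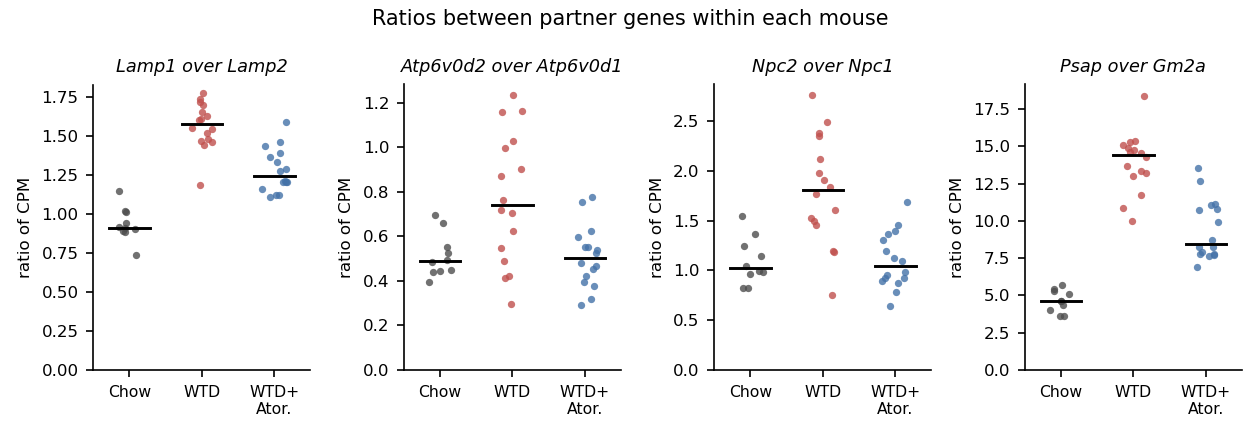
Ratio of CPM between 4 pairs of partner genes (vertical axes, starting at 0) in each mouse, with group medians as lines. Lamp1 over Lamp2 and Psap over Gm2a separate WTD from chow with no overlap, at medians of 1.58 against 0.913 and 14.4 against 4.61, whereas the other ratios overlap.

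Lysosomal genes are strongly expressed in macrophages, so the levels of macrophage markers were set beside those of the members. Of 15 such markers, 14 were tested, all were higher on WTD than on chow (median log2 fold change 2.31) and 9 were lower with atorvastatin (median over the 14 of -0.55). Itgam, a defining marker, was listed at 0 in all mice. The summed level of the markers was 376.4 to 529.9 CPM on chow, 1494 to 3417 on WTD and 1190 to 2266 on WTD+Atorvastatin. Markers of lipid-associated macrophages were higher on WTD in 6 of 6 and markers of cholangiocytes in 5 of 5, those of stellate cells in 3 of 6 and of Kupffer cells in 2 of 5. Of the sinusoidal endothelium 1 of 6 was higher and 2 were lower, 3 of 3 tested neutrophil markers were higher, and no T cell or B cell marker was called. The 7 listed neutrophil markers summed to medians of only 2.798 CPM on chow and 9.782 on WTD. On WTD 17.5% of all tested genes were higher, 16.0% lower and 33.5% called in either direction. With atorvastatin 2.26% were lower. The part of cell composition in the members' changes was not tested.

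Within a group the diet is the same for all mice, so the level of each member was related to the summed macrophage marker level across the 16 mice of either WTD group, on the log2 scale, with permutation tests adjusted over the 86 relations. On WTD+Atorvastatin 12 members were related at an adjusted p under 0.05, 11 of them positively. Lgmn had Pearson's r = 0.887 (permutation p = 2e-05, adjusted p = 0.00172) and Spearman's rho = 0.944 (permutation p = 1e-05, the smallest that the permutations can give, adjusted p = 0.00086), and r = 0.870 without the 2 mice farthest from the median marker level. Cd63 had r = 0.827 (permutation p = 6e-05, adjusted p = 0.00229), rho = 0.829 (permutation p = 0.00013, adjusted p = 0.00241) and r = 0.864 without those mice. Gusb had r = 0.824 (permutation p = 8e-05, adjusted p = 0.00229), rho = 0.888 (permutation p = 2e-05, adjusted p = 0.00086) and r = 0.798 without them.

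The other positive relations on WTD+Atorvastatin were those of Asah1, Psap, Sgsh, Hexa, Gla, Tfe3, Mitf and Npc2, with r from 0.641 to 0.771. Lamp2 was related negatively, with r = -0.719 (permutation p = 0.00179, adjusted p = 0.022), rho = -0.765 (permutation p = 0.00104, adjusted p = 0.0112) and r = -0.684 without those mice. Without the 2 mice 6 relations had an adjusted p under 0.05, all positive.

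On WTD alone 3 members were related to the markers at an adjusted p under 0.05. Lamp2 had r = -0.781 (permutation p = 0.00089, adjusted p = 0.0153) and rho = -0.565 (permutation p = 0.0252, adjusted p = 0.0954). Cd63 had r = 0.767 (permutation p = 0.00429, adjusted p = 0.0307) and rho = 0.603 (permutation p = 0.0156, adjusted p = 0.0784). Atp6v0d2 had r = 0.650 (permutation p = 0.0053, adjusted p = 0.0351) and rho = 0.562 (permutation p = 0.0255, adjusted p = 0.0954). By Spearman's rho 0 members passed, and without the 2 farthest mice, among them Gen20, 0 passed and r was -0.434, 0.247 and 0.344. Whether the 3 relations passed thus depended on those mice, whose removal also narrowed the range of marker levels and left 14 mice. The difference between the 2 groups in these relations was not tested. Leaving Cd68, itself a lysosomal protein, out of the markers left the numbers at 12 and 3. Cd68 was a small part of the sum, with medians of 92.04 CPM on WTD and 60.39 on WTD+Atorvastatin. The sums had medians of 2517 and 1542 CPM. Lyz2 made up more of them, with medians of 1094 and 502.6 CPM, and the relations without Lyz2 were not tested.

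**Figure D5:**
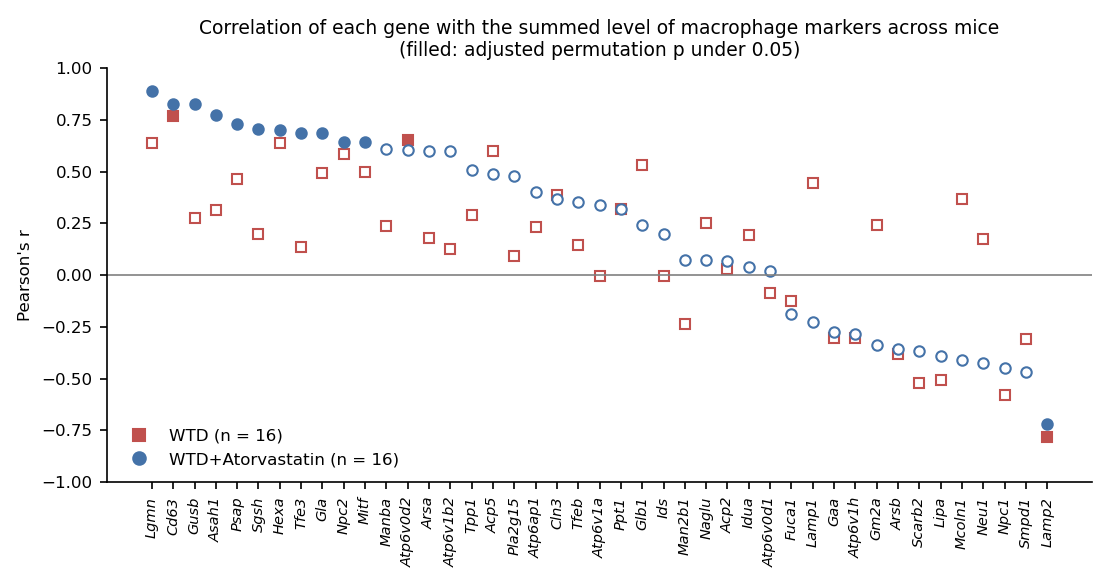
Pearson's r between the level of each member and the summed level of macrophage markers (vertical axis, -1 to 1) across the 16 mice of WTD (squares) and the 16 of WTD+Atorvastatin (circles), genes ordered by the latter. Filled symbols had an adjusted permutation p under 0.05; Lgmn is highest at 0.887 and Lamp2 lowest in both groups, at -0.719 and -0.781.

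Another 93 genes of lysosomes and their surroundings were listed beside the members, and 88 were tested. On WTD 35 rose and 3 fell, a share called of 43.2% against 33.5% of all tested genes, with a median log2 fold change of 0.22. Of all tested genes 17.5% rose and 16.0% fell. Of the other proton pump subunits 8 of 12 tested rose, led by Atp6v1c1 (0.82 ± 0.09) and Tcirg1 (0.62 ± 0.10), the a subunit known from osteoclasts and immune cells. Of the other hydrolases and activators 12 of 20 rose and 1 fell, with Pld3 at 1.60 ± 0.09. Of the other membrane proteins and transporters 6 of 18 rose (33.3% called, near the share of all genes), among them Laptm5, a protein of blood cells, from a median of 21.5 to 130.1 CPM (adjusted p = 6.48e-19), and Mfsd12 (1.46 ± 0.16).

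Of the sorting receptors and delivery genes 7 of 14 rose, including Igf2r, the mannose 6-phosphate receptor that brings hydrolases to lysosomes (0.57 ± 0.09), and Plekhm1 (0.63 ± 0.10). In the genes that dock mTORC1 to lysosomes and sense nutrients, 2 of 14 rose and 2 fell, 28.6% called, which is below the share of all genes. Those that rose were Rragd, with medians of 2.94 CPM on chow and 23.4 on WTD (2.57 ± 0.32), and Rragc (0.53 ± 0.09), which encode related GTPases of the Rag family. Of 10 tested autophagy genes 0 were called by edgeR on WTD, with 1 at an unadjusted p under 0.05, Sqstm1 (0.22 ± 0.09, adjusted p = 0.0497). Wipi1 had 0.18 ± 0.11 (adjusted p = 0.192). Over all tested genes, 17.5% rose on WTD, 16.0% fell and 33.5% were called in either direction. Atp6v0c, Map1lc3b and Cpvl were listed at 0 in all 42 mice and were not tested.

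With atorvastatin 7 of these 88 genes fell and 3 rose, a share called of 11.4%, against 2.26% of all tested genes lower, 4.84% higher and 7.10% called in either direction. Atp6v0b fell by 0.34 on the log2 scale (adjusted p = 4.23e-05) and Rragd by 1.19 (adjusted p = 0.000954). Cd164, a membrane glycoprotein, rose by 0.26 (adjusted p = 0.00311), and Ulk1, the kinase that starts autophagy, by 0.41 (adjusted p = 0.00204). Sort1, a sorting receptor, had -0.56 and an adjusted p of 0.127.

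Some members share exon positions with other genes. Glb1 overlaps Tmppe on the same strand, and Acp2, Acp5, Arsa, Arsb, Atp6v1h, Cln3, Hexa, Idua, Lamp1, Npc1, Ppt1 and Sgsh overlap genes on the opposite strand, so that their counts are less certain where the strand setting of the counting is unknown.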

How the data were processed

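Liver RNA of 42 mice was sequenced with strand-specific libraries of polyadenylated RNA. The authors trimmed the reads with Trimmomatic, aligned the pairs to GRCm38 (GENCODE vM19) with STAR and counted them with HTSeq-count 0.6.1p1, and they deposited raw counts per gene without normalization. The strand setting of the counting is not given in the sources used here. On average 2.28% of counted pairs fell in no gene, and such summary lines were left out.

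Symbols, positions and exon lengths came from GENCODE vM21 (54409 of 54446 identifiers found). In edgeR 4.0.16 (R 4.3.3), filterByExpr kept genes with a minimum count of 10 and a total of at least 15, TMM set the library sizes, and all 42 mice entered 1 robust quasi-likelihood fit without covariates. Adjusted p values are Benjamini-Hochberg values over 15574 genes, called under 0.01. Relations used 100000 permutations on log2(CPM + 0.1). P values judge a group difference or a relation against the variation between mice.

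The members and gene lists were chosen with earlier results of these data known. Every member may be named, and in full were named the 2 with the smallest p per role for the effects of WTD and atorvastatin, the transcription factors, Lipa, Npc1, Npc2 and members called against the common direction, and per further list the 2 and the 1 with the smallest p, except that 1 gene of a further list is counted but not reported here by name. The alternatives replaced the test (DESeq2 1.42.0, or voom with quality weights in limma 3.58.1), the scaling (RLE, upper quartile), the filter (none, or a minimum of 10 counts per gene in each mouse), the robust fit, the groups in the fit, the threshold (0.05) or the genes (without the 20 most abundant), or left out the libraries short of weakly expressed genes or each mouse in turn. The fit was also run on simulated counts in which few genes changed, equally often up and down. That simulation does not cover changes as broad as those seen here on WTD. Promoter windows came from RefSeq. Python 3.11.15, pandas 2.3.3, scipy 1.17.1 and matplotlib 3.10.9 were used.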

Additional observations from a re-analysis of the deposited data

Results flagged for a closer look

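Among the 10 chow mice, 5 of the 43 members had 1 mouse whose gap to the next, divided by the range on the log2 scale, was above 0.466, the critical value of Dixon's test for 10 mice. Chance flags about 1 in 20 groups. Arsa was at 4.54 CPM in chow mouse AZ2, with the other chow mice from 23.3 to 51.2, and Asah1 was at 11.9 CPM in the same mouse, with the others from 38.9 to 65.4. The library of AZ2 had no count for 59.7% of the weakly expressed genes, the highest share of all libraries. Acp2 was at 43.5 CPM in AZ5, against 63.7 to 87.8, and this library lacked 46.4% of those genes. Pla2g15 was at 16.7 CPM in AZ1, against 21.5 to 27.9. Lamp2 was at 810 CPM in AZ4, against 551 to 630. The part of library quality in these values was not tested. In groups of 16 mice no such check was made.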

How the results depend on the processing

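The members' median log2 fold change kept its direction under every alternative, from 0.43 to 0.49 for WTD against chow, from -0.11 to -0.06 for WTD+Atorvastatin against WTD and from 0.35 to 0.44 for WTD+Atorvastatin against chow. Leaving out each mouse gave 0.41 to 0.47, -0.10 to -0.06 and 0.34 to 0.41, with 27 to 30, 7 to 12 and 21 to 25 members called. Under all 10 alternative settings 27 of 29, 5 of 8 and 19 of 23 calls were kept. Members called with atorvastatin against WTD numbered 8, but 14 with DESeq2, 21 with limma-voom, 13 with the stricter filter (10 counts in each mouse), 13 with only the 2 groups compared and 16 at an adjusted p under 0.05. Relations with the macrophage markers numbered 3 on WTD, but 7 with RLE in place of TMM and 0 both with Spearman's rho and without the 2 farthest mice. On WTD+Atorvastatin they numbered 12, but 6 without those mice. The cause was not tested.

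Direction turned only for members called in neither setting. For WTD against chow these were Fuca1 and Smpd1 with limma-voom (-0.05 and -0.06) and without the libraries short of weakly expressed genes (-0.02 and 0.00), Atp6v0d1 without those libraries (0.05) and Atp6v1h with limma-voom (0.02). For WTD+Atorvastatin against WTD, DESeq2, RLE, upper quartile and the stricter filter gave Fuca1 -0.03, -0.03, -0.02 and -0.03, Arsb -0.03, -0.03, -0.01 and -0.02, and Cln3 -0.04, -0.04, -0.02 and -0.03. Limma-voom gave Arsb -0.02, Cln3 -0.03, Pla2g15 0.00, Atp6v0d1 0.01 and Atp6v1h -0.01. Only the 2 groups gave Fuca1 and Cln3 0.00, and DESeq2 and RLE gave Scarb2 0.00. For WTD+Atorvastatin against chow, limma-voom gave Fuca1 0.00, Gm2a 0.04, Atp6v1h 0.01 and Tfeb 0.20. Without the libraries Fuca1, Gm2a, Atp6v0d1 and Atp6v0d2 were at 0.00, Atp6v1h at 0.01 and Tfeb at 0.15. No filter gave Gm2a and Tfeb 0.01, and the stricter filter 0.01 and 0.00. Upper quartile and only the 2 groups gave Fuca1 -0.01 and -0.01 and Acp2 -0.02 and -0.02, and DESeq2 and RLE gave Acp2 0.00. No paired analysis was possible because the mouse numbers are unique to each mouse and the groups compared share none.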
